A study of Mus musculus with 64 samples.

Results

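Several enzymes of energy metabolism exist in mice as a pair or a set of genes, of which one copy is used in most tissues and another mainly in male germ cells. The genes described here were 10 of the 26385 genes that the RNA-Seq tables list, taken by their symbols: the somatic forms Ldha, Ldhb, Pgk1, Pdha1 and Cycs, and the germ cell forms Ldhc, Pgk2, Pdha2, Cyct and Gapdhs. Each symbol named 1 row of the tables. All 10 genes were followed over the 47 RNA-Seq libraries of the series, as reads counted on the gene and as RPKM, reads scaled to the length of the exons in kilobases and to the mapped reads of the library, which is the scale of every level below.

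Lactate dehydrogenase, built from the products of Ldha, Ldhb and Ldhc, interconverts pyruvate and lactate. Phosphoglycerate kinase (Pgk1, Pgk2) and glyceraldehyde-3-phosphate dehydrogenase, of which Gapdhs encodes the sperm form, are neighbouring steps of glycolysis. The E1 alpha subunit of pyruvate dehydrogenase (Pdha1, Pdha2) acts on pyruvate inside the mitochondria, and cytochrome c (Cycs, Cyct) carries electrons in the respiratory chain. Pgk2 and Pdha2 are autosomal, intronless copies of the X-linked genes Pgk1 and Pdha1, and the X chromosome is silenced in male meiosis. Ldhc, Pdha2 and Cyct are known from meiotic spermatocytes, whereas PGK2 and GAPDHS are known as proteins of later cells and of sperm, and Sertoli cells are known to feed lactate to the germ cells.

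The study concerned MORC1, a germ line ATPase, and set mutant male mice against controls of the same age and line. The Morc1 tg allele is a tyrosinase transgene insertion that removed exons 2 to 4 of Morc1, kept in the FVB/N strain. Germ cells were sorted from Morc1 tg/+ and Morc1 tg/tg males: at E16.5 (2 and 2 libraries), E18.5 (2 and 2) and P2.5 (3 and 2) as GFP-positive cells after a cross into a mixed background with the Oct4-IRES-Gfp reporter, and at P10.5 (4 and 3) by side scatter, EPCAM and MHC class I. Whole testis was taken at P10.5 from the Morc1 line (3 tg/tg, 2 tg/+ and 1 +/+, with 1 further +/+ and 1 further tg/+ library labelled preliminary), from the Dnmt3l line (3 -/-, 3 +/- and 3 +/+) and from the Miwi2 line (2 labelled -/- and 2 +/-), and at P14.5 from the Morc1 line (3 tg/tg and 3 tg/+). DNMT3L is a cofactor of DNA methylation in germ cells, and MIWI2, encoded by Piwil4, is a PIWI protein of the piRNA pathway. The strains of the Dnmt3l and Miwi2 lines are not given in the sources used here. Each library came from 1 mouse.

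The sorted libraries held 2413679 to 14918478 reads on genes (median 7542692) and the testis libraries 22509570 to 42137954 (median 28815956). Morc1 was lower in every Morc1 tg/tg group, from 2.63 to 3.49 against 7.73 to 8.77 at P14.5, the remaining reads lying on a gene of which only part was deleted, and Dnmt3l was at 0.037 to 0.0464 in Dnmt3l-/- testis against 0.374 to 1.02 in its controls. In the libraries labelled Miwi2-/-, Piwil4 was higher than in Miwi2+/- (10.7 to 11.5 against 6.65 to 7.01), so that the level of the gene went against the label. Which part of Piwil4 this allele removes is not known here, reads outside that part would check nothing, and transposon reads were not analysed here. Sorted cells and testis were prepared with different library kits, and their levels are given side by side without a test. The sorted libraries were not free of somatic RNA: the summed level of 7 Sertoli cell markers was 27.03 to 44.9 at E16.5 to P2.5 and 45.6 to 116 at P10.5, against at least 2352 in the testis libraries of the Morc1 and Dnmt3l lines.

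All 10 genes lie on annotated chromosomes of mm9. Ldha (ENSMUSG00000063229, chr7:54096845-54110997) and Ldhc (ENSMUSG00000030851, chr7:54116573-54133512) are neighbours on the plus strand, 5575 bases apart, while Ldhb (ENSMUSG00000030246, chr6:142438769-142456477) and Cycs (ENSMUSG00000063694, chr6:50512562-50516537) lie on the minus strand of chromosome 6. Pgk1 (ENSMUSG00000062070, chrX:103382439-103399038) and Pdha1 (ENSMUSG00000031299, chrX:156560141-156576345) are X-linked with 11 exons each. Their copies Pgk2 (ENSMUSG00000031233, chr17:40343963-40345554) and Pdha2 (ENSMUSG00000047674, chr3:140872968-140875319) have 1 exon each. Cyct (ENSMUSG00000056436, chr2:76191999-76198507) has 4 exons, and Gapdhs (ENSMUSG00000061099, chr7:31514799-31528700) has 11. Pdha1 shares 1143 bases of its span with Map3k15 on the opposite strand, and the testis kit does not mark the strand, so reads of these genes cannot be told apart there.

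Reads were kept where they had a single place among the annotated genes and repeats, and those that failed there were mapped to the genome. Similarity to other places was measured here against the whole genome, so it is not itself the part of a transcript that went uncounted. Along the transcripts of Ldhc, Pgk2, Pdha2 and Cyct, 0% of the 50-base windows had a copy elsewhere in mm9 with up to 2 mismatches, and in Gapdhs 0.284% had one. Among the somatic forms this share was 92.9% in Pgk1, 82.2% in Ldhb, 71.8% in Ldha, 42.7% in Cycs and 13.0% in Pdha1. The levels of somatic forms, and every level of a germ cell form set against one, may be touched by this and are uncertain, and the part of this in the values was not tested. No window was shared between the members of a set. Over the positions where both coding sequences had a base, they were identical at 73.9% between Ldha and Ldhc, 65.2% between Ldhb and Ldhc, 79.3% between Pgk1 and Pgk2, 75.6% between Pdha1 and Pdha2 and 76.1% between Cycs and Cyct. The first 150 coding bases of the cytochromes c, the shortest coding sequences and the pair nearest in level in E16.5 germ cells, are shown with their 30 differing bases in capitals, from the GENCODE transcripts of the mm9 release.
Cycs coding bases 1 to 150: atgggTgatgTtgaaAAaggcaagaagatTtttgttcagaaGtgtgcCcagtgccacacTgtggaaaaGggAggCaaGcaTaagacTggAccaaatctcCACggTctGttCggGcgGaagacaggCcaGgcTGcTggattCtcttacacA
Cyct coding bases 1 to 150: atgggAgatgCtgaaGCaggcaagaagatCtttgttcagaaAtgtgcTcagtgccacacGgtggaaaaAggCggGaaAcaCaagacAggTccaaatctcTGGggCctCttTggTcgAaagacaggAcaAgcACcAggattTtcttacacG

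The promoters of the 3 germ cell forms called in P14.5 Morc1 testis are shown with their somatic counterparts, since they differ in CpG content. CpG sites are what DNMT3L-dependent methylation acts on, but methylation of these promoters was not analysed here, and its part in the calls was not tested. Each runs from 250 bases before to 50 bases after the RefSeq start, with CG dinucleotides in capitals. The sequences are those of RefSeq on GRCm38, each of which matched mm9 exactly once, and the positions are those of mm9.
Ldhc promoter (plus strand), chr7:54116383-54116682: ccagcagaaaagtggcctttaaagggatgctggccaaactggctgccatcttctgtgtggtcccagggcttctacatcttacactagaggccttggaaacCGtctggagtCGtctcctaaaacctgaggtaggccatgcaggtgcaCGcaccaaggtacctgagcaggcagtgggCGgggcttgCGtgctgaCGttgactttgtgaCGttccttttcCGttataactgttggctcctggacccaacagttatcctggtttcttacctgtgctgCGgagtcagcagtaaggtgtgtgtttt
Ldha promoter (plus strand), chr7:54100924-54101223: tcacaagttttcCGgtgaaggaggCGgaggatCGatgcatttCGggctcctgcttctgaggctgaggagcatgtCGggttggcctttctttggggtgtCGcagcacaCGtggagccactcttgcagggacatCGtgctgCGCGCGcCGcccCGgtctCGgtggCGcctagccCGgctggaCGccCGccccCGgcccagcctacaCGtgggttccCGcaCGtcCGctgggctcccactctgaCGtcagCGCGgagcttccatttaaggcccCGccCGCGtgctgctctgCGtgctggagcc
Pdha2 promoter (minus strand), chr3:140875270-140875569: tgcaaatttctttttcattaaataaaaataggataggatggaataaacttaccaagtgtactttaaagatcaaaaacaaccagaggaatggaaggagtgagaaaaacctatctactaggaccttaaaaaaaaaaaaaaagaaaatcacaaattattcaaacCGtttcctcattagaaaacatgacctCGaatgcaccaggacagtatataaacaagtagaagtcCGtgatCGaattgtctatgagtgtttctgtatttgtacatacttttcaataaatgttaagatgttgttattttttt
Pdha1 promoter (minus strand), chrX:156576313-156576612: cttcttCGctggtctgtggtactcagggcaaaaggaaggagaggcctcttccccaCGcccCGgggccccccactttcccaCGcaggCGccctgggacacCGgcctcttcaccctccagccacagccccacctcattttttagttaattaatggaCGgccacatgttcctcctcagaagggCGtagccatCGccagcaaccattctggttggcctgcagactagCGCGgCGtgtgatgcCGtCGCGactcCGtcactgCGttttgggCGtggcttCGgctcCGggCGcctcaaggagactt
Cyct promoter (minus strand), chr2:76198461-76198760: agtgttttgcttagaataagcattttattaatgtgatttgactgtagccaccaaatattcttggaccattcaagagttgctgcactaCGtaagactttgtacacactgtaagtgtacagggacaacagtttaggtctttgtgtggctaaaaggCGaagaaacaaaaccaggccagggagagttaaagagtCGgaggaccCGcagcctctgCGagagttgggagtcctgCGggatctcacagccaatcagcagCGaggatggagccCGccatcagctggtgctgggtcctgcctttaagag
Cycs promoter (minus strand), chr6:50516519-50516818: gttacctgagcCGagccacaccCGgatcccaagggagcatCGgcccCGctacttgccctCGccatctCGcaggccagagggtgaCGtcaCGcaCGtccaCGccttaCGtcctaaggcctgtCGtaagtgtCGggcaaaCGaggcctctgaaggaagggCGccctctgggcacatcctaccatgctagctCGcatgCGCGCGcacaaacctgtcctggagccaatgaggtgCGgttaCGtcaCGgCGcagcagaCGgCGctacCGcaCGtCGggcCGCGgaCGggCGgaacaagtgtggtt
The 5 germ cell forms had 9 (Ldhc), 8 (Cyct), 4 (Pdha2), 4 (Pgk2) and 4 (Gapdhs) CpG sites in this window, and the 5 somatic forms 32 (Cycs), 30 (Ldha), 24 (Pgk1), 21 (Pdha1) and 17 (Ldhb). Every somatic form was above every germ cell form. The median of all 32851 promoter windows was 7, with quartiles of 3 and 20, so the germ cell forms lay near the middle of all promoters and 4 of the 5 somatic forms above the upper quartile. Second annotated starts gave 13 sites for Ldha, 3 for Ldhc and 1 for Gapdhs. Of 3 motifs searched on both strands, the cAMP response element TGACGTCA, which is in 1.79% of all windows, was found in Cycs and Ldha and in none of the germ cell forms. The GC box GGGCGG, in 35.7% of windows, was found in Ldha, Pgk1, Cycs and Ldhc, and CCAAT, in 37.4%, in Pgk1, Pgk2, Ldhb, Cycs and Cyct. Such matches are descriptions of these letters and not of bound sites.

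**Figure D1:**
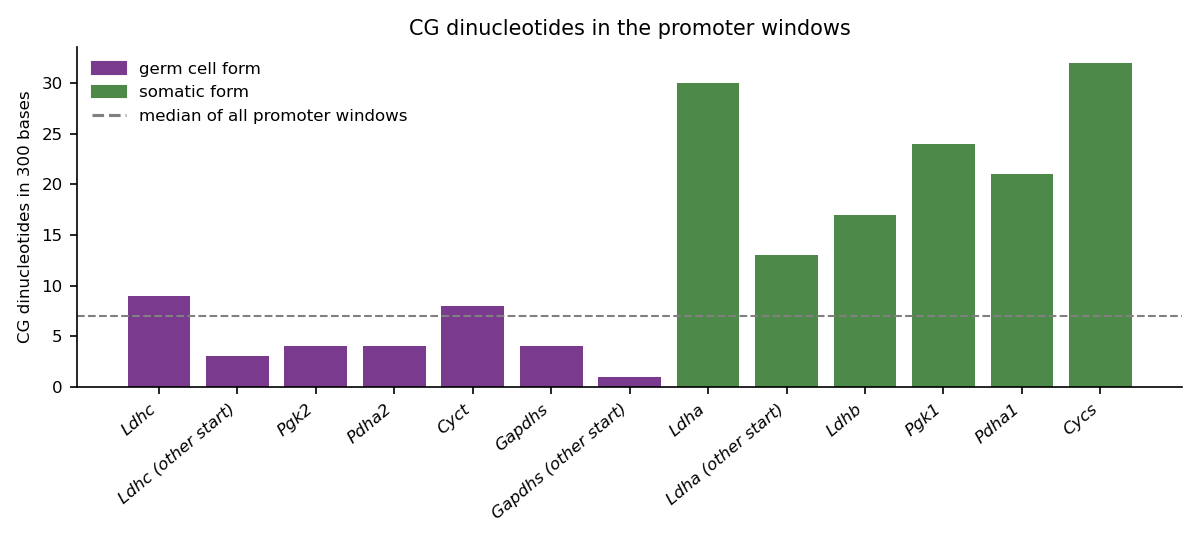
Number of CpG dinucleotides in the 300-base promoter window of each annotated start, with the median over all promoter windows as a line. At the start with the most sites, the somatic forms lie between 17 and 32 and the germ cell forms between 4 and 9, with no overlap. The other starts lie at 13 (Ldha), 3 (Ldhc) and 1 (Gapdhs).

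By mean RPKM in sorted control germ cells, Cyct was among the 3 most abundant of the 10 genes at E16.5 and the most abundant at P10.5. Pgk2 was the lowest at both ages. At E16.5, the order of mean levels was Ldha (41.2), Cycs (26.1), Cyct (24.7), Ldhc (8.25), Pgk1 (7.11), Pdha1 (6.01), Ldhb (4.52), Pdha2 (1.79), Gapdhs (1.24) and Pgk2 (0.294). Within this order the ranges of these neighbours overlapped: Cycs and Cyct, Ldhc and Pgk1, Pgk1 and Pdha1, and Pdha2 and Gapdhs. At P10.5 the order was Cyct (22.9), Cycs (18.46), Ldhb (11.6), Pgk1 (5.39), Pdha1 (5.15), Pdha2 (3.16), Ldha (2.03), Gapdhs (1.03), Ldhc (0.382) and Pgk2 (0.0566). Cyct lay above Cycs in all 4 libraries per length, while by reads it made up 18.8 to 23.8% of the pair. Of the Cycs windows 42.7% had a copy elsewhere, against 0% of those of Cyct, and the part of this in their order was not tested. Here the ranges overlapped between Pgk1 and Pdha1, Pdha1 and Pdha2, Gapdhs and Ldhc, and Ldhc and Pgk2.

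**Figure D2:**
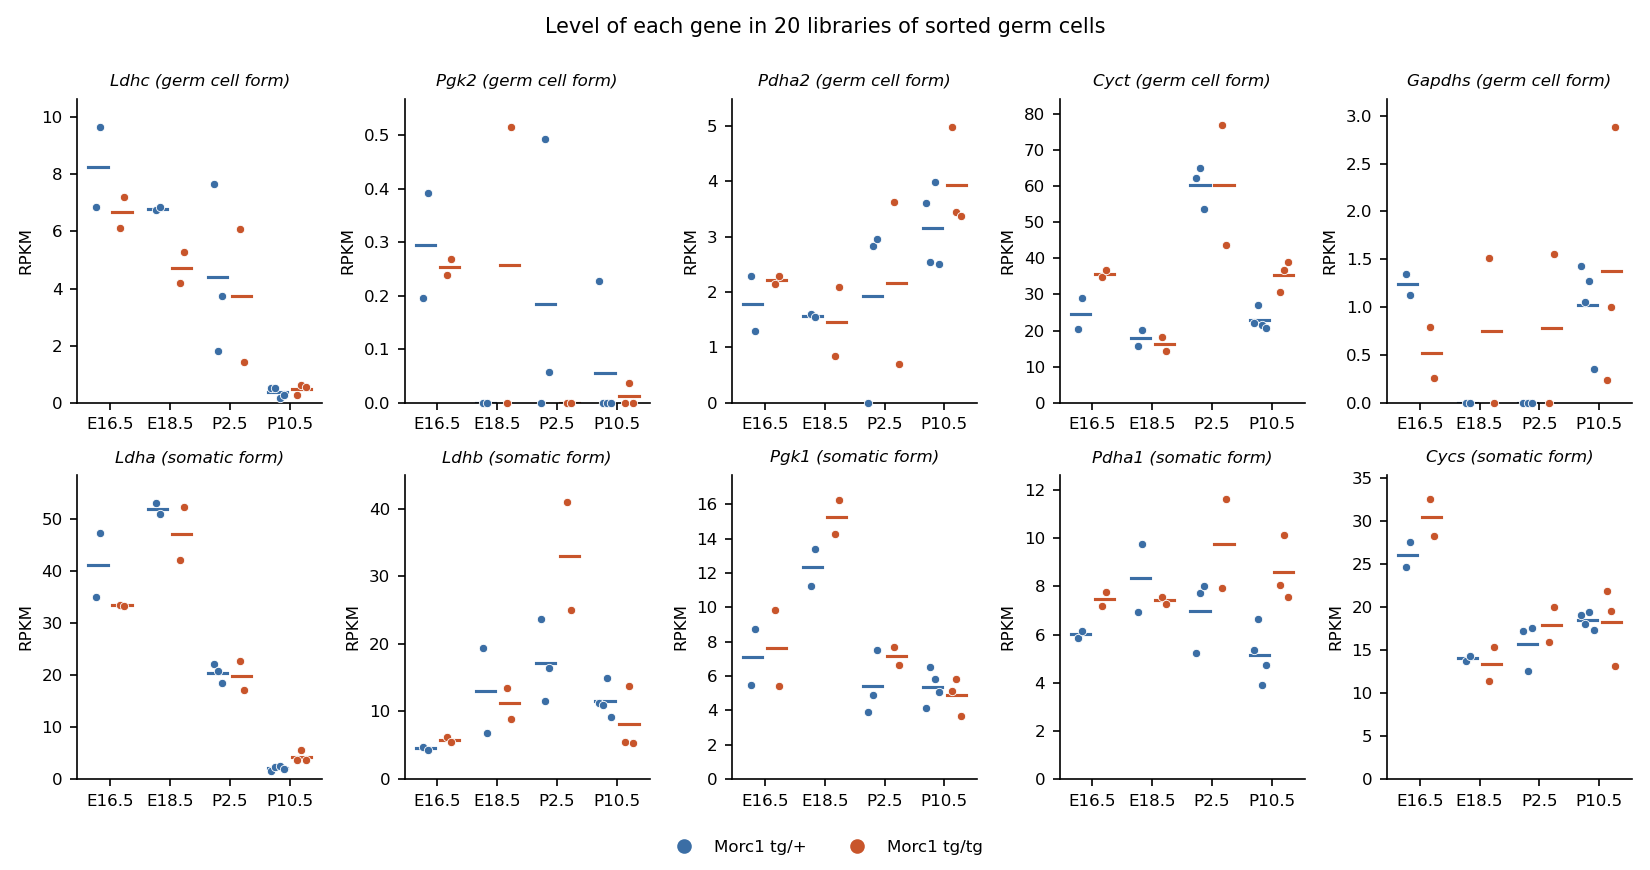
RPKM of the 10 genes in the 20 libraries of sorted germ cells by stage and genotype, 1 point per library with bars at the group mean. Ldha falls from 51.0 and 53.2 at E18.5 to 1.504 to 2.45 at P10.5 in Morc1 tg/+ cells, while Cyct peaks at P2.5.

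Of the lactate dehydrogenase genes, Ldha and Ldhc fell between P2.5 and P10.5. Ldha, the form favoured in glycolytic cells, was at 35.1 and 47.3 in the E16.5 tg/+ libraries, 53.2 and 51.0 at E18.5, 22.1, 20.8 and 18.6 at P2.5, and 1.504, 2.22, 2.45 and 1.96 at P10.5. The libraries of each of the last 3 stages lay apart from those of the stage before. By edgeR's quasi-likelihood test over all genes, Ldha fell by 1.53 ± 0.20 (log2 fold change ± SE) from E18.5 to P2.5 (adjusted p = 2.27e-05) and by 3.04 ± 0.19 from P2.5 to P10.5 (adjusted p = 4.02e-08). Ldhc was at 6.85 and 9.66 in the E16.5 libraries, 6.74 and 6.85 in those of E18.5, 7.67, 1.80 and 3.75 at P2.5, and 0.529, 0.525, 0.181 and 0.292 at P10.5. It fell by 3.19 ± 0.55 between the last 2 stages (adjusted p = 0.000466), where its groups did not overlap. Ldhb, the heart form, was at 19.4 and 6.79 at E18.5 after 4.80 and 4.23 at E16.5 (1.496 ± 0.43 on the log2 scale, adjusted p = 0.0214). The E18.5 libraries lay above those of E16.5 but far from each other, and the call was lost without either E16.5 library (adjusted p = 0.0584 and 0.162) or without E18.5 library 1 (0.232). The share of Ldhb in the summed level of Ldha and Ldhb was 10.1% ± 2.7 (SD, n = 2) at E16.5, 44.8% ± 8.25 (n = 3) at P2.5 and 84.9% ± 2.68 (n = 4) at P10.5. The summed Sertoli cell markers of these tg/+ libraries were 31.2 to 41.2, 28.5 to 31.8 and 68.0 to 116 at the same stages, and Ldhb was at 407 to 655 in testis. The part of somatic RNA in the share of Ldhb was not tested.

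Cytochrome c followed another course. Cyct was at 15.7 and 20.3 in E18.5 tg/+ germ cells and at 62.2, 65.0 and 53.5 at P2.5, a rise of 1.54 ± 0.27 (adjusted p = 0.000338). It stood at 22.2, 27.03, 21.6 and 20.8 at P10.5, lower than at P2.5 by a log2 fold change of -1.11 ± 0.20 (adjusted p = 0.000788). The P2.5 libraries were the highest of the 3 stages, with no overlap. Cycs fell from 24.7 and 27.6 at E16.5 to 13.7 and 14.4 at E18.5 (-0.87 ± 0.17, adjusted p = 0.00214) and rose by 0.52 ± 0.13 between P2.5 and P10.5 (adjusted p = 0.00836). Cyct made up 48.3% ± 4.2 (n = 2) of the summed level of both genes at E16.5, 56.0% ± 3.68 (n = 2) at E18.5, 79.2% ± 4.31 (n = 3) at P2.5 and 55.2% ± 3.23 (n = 4) at P10.5. These shares are per length, the Cycs transcript having 3123 bases and that of Cyct 655. By reads alone Cyct was the minor form in most libraries, with 14.7 and 18.0% at E16.5, 38.9 to 52.0% at P2.5 and 18.8 to 23.8% at P10.5.

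Of the glycolytic forms, Pgk1 was at 11.3 and 13.4 at E18.5 and at 3.92, 4.87 and 7.53 at P2.5, a fall of 1.38 ± 0.33 on the log2 scale (log2 fold change -1.38, adjusted p = 0.00388). Pgk2 did not pass the filter on low counts in any comparison. It had 6 and 14 reads in the E16.5 libraries, 0 and 0 in those of E18.5, 0, 8 and 1 at P2.5, and 6, 0, 0 and 0 at P10.5. Gapdhs had no read in the E18.5 and P2.5 tg/+ libraries. Against a floor of 3 reads over the group, it was at least 6.88-fold lower at E18.5 than at E16.5 (67 reads, adjusted p = 0.0406) and at least 13.8-fold higher at P10.5 (90 reads) than at P2.5 (adjusted p = 0.00855). Gapdhs passed the filter through the E16.5 and P10.5 libraries and not through those of E18.5 or P2.5, so that these calls follow in part from the filter. The first of these calls was lost when any 1 of the E16.5 or E18.5 libraries was left out. In tg/tg cells Gapdhs had 9 reads in 1 E18.5 library (1.51 RPKM) and 0 in the other, and 21 reads in 1 P2.5 library (1.56 RPKM) and 0 in the other. Both levels were above those of every tg/+ library of E16.5 (1.13 and 1.35) and P10.5 (0.355 to 1.43). Pdha1 and Pdha2 were called in none of the 3 steps. Pdha2 was at 2.29 and 1.29 in the E16.5 libraries, 1.60 and 1.54 in those of E18.5, 0, 2.84 and 2.96 at P2.5, and at 3.604, 2.55, 3.98 and 2.51 at P10.5.

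Over these 3 steps, 3, 3 and 5 of the 9 members tested were called. The first and last of these counts include Gapdhs, whose calls follow in part from the filter. The share called among all genes tested was 18.7% from E16.5 to E18.5, 39.1% from E18.5 to P2.5 and 27.6% from P2.5 to P10.5. Cells at P10.5 were sorted by other markers than those of the earlier stages, and the reporter cross of the earlier stages had a mixed background, so stage, sort and genetic background cannot be told apart in the last step.

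In Morc1 tg/tg germ cells none of the members was called before birth or at P2.5. The share of all genes called was 0.421% at E16.5, 0.0416% at E18.5 and 0.0486% at P2.5, so calls were rare for any gene at these stages. At an unadjusted p under 0.05, 1447 genes and 2 of 9 members passed at E16.5, 895 genes and 0 of 8 at E18.5, and 698 genes and 1 of 8 at P2.5. Cyct was at 34.8 and 36.8 in E16.5 tg/tg cells against 20.5 and 29.0 in tg/+ (log2 fold change 0.46, adjusted p = 0.450), and Ldha was at 33.6 and 33.4 against 35.1 and 47.3 (-0.37, adjusted p = 0.276). In both, the tg/tg libraries lay beyond the tg/+ libraries. How many of all genes lay apart in this way, here or in any other comparison, was not counted. Ldhb at P2.5 was at 41.0 and 25.0 against 23.7, 11.5 and 16.49 (0.93, adjusted p = 0.968), again without overlap. In the same libraries the summed Sertoli cell markers were 37.6 and 43.9 against 28.5 to 31.8, and the peritubular cell markers 5.82 and 10.97 against 4.83 to 5.57. Of the 7 Sertoli markers and 5 peritubular markers none was called (medians 0.65 and 0.57), and their part in Ldhb was not tested.

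At P10.5, Cyct, Ldha and Pdha1 were higher in tg/tg than in tg/+ germ cells, and the other 6 members tested did not pass. These 3 of 9 members stood beside 12.2% of all genes called in either direction and 6.43% called higher. Cyct was at 30.7, 36.7 and 39.1 in the tg/tg libraries and at 22.2, 27.03, 21.6 and 20.8 in tg/+, a log2 fold change of 0.55 ± 0.14 (adjusted p = 0.0091). Ldha was at 3.63, 5.52 and 3.58 against 1.504, 2.22, 2.45 and 1.96 (0.97 ± 0.24, adjusted p = 0.00746). Pdha1 was at 8.06, 10.1 and 7.55 against 5.34, 6.65, 3.89 and 4.72 (0.65 ± 0.15, adjusted p = 0.00547). In all 3 genes every tg/tg library was above every tg/+ library, a separation that was not counted over all genes. Markers of germ cell stages moved in the same comparison: 5 of 8 early meiosis markers were lower (median -0.45, summed level 163 to 169 against 191 to 221), 2 of 8 pachytene markers were lower, and of 6 spermatogonia markers 2 were higher and 2 lower. Their part in these 3 genes was not tested. Without tg/tg library 2, Ldha was no longer called (0.77, adjusted p = 0.0834), and without tg/tg library 3 the same held for Cyct (0.45, adjusted p = 0.0674).

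Ldhb went the other way in most of these libraries without passing the test. It was at 5.51, 13.7 and 5.31 in tg/tg against 11.3, 10.9, 14.9 and 9.15 in tg/+ (-0.59, adjusted p = 0.0877). Only tg/tg library 2 lay within the tg/+ range, and without it the log2 fold change was -1.15 (adjusted p = 0.000452). Ldhb was also called when the filter on low counts was left out (-0.58, adjusted p = 0.00903). The summed level of Sertoli cell markers was 90.5 in that library and 45.6 and 46.5 in the other tg/tg libraries, against 68.0 to 116 in tg/+. Of the 7 Sertoli markers 3 were lower in tg/tg cells, and none was at 0 in any of these libraries. Their part in the values of Ldhb was not tested. Pdha2 (3.37 to 4.97 against 2.51 to 3.98), Ldhc (0.278 to 0.613 against 0.181 to 0.529) and Gapdhs (0.242 to 2.88 against 0.355 to 1.43) overlapped between the genotypes.

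In control testis between P10.5 and P14.5, a period in which cells of the first wave advance through meiotic prophase, Ldhc, Pdha2 and Cyct rose and the somatic forms Ldha, Pdha1 and Cycs fell. This step called 57.6% of all genes (29.6% higher, 27.9% lower), beside 6 of the 9 members tested, 3 higher and 3 lower. These counts of members lay near the shares of all genes. Ldhc was at 0.136 in the +/+ library and 0.425 and 0.257 in the tg/+ libraries of P10.5, and at 46.0, 20.2 and 67.3 in those of P14.5, a log2 fold change of 7.33 ± 0.47 (adjusted p = 3.01e-08). Pdha2 was at 3.01, 2.79 and 2.84 against 12.7, 10.4 and 18.0 (2.25 ± 0.17, adjusted p = 9.43e-08), and Cyct at 11.2, 10.3 and 13.3 against 22.7, 17.9 and 30.0 (1.02 ± 0.16, adjusted p = 9.87e-05). All P14.5 libraries were above all P10.5 libraries in these 3 genes. Ldhc passed the filter on low counts through the P14.5 libraries and not through these P10.5 libraries, so its call follows in part from the filter. In each of them the third P14.5 library was the highest and the second the lowest. In whole testis, a larger part of germ cells of a kind and more RNA per cell cannot be told apart, here and in all testis comparisons below. The labels do not say whether the ages were sequenced together, so age and batch cannot be told apart. Over this step all 8 early meiosis and 7 of 8 pachytene markers were higher, and of 6 spermatogonia markers 2 were higher and 1 lower. Of 7 Sertoli cell markers 5 were lower and 1 higher, of 5 peritubular cell markers 3 were lower, and of 6 Leydig cell markers 2 were lower and 1 higher. The part of these markers in the levels of the members was not tested.

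The somatic forms moved less. Log2 fold changes from P10.5 to P14.5 were -0.29 for Ldha (adjusted p = 0.000733), -0.43 for Pdha1 (adjusted p = 1.8e-05) and -0.30 for Cycs (adjusted p = 0.00789). Ldhb (0.04) and Pgk1 (-0.15, adjusted p = 0.0604) were not called. Gapdhs, at 2.48 to 3.23 and then at 2.94 to 3.58, was not called either (0.21, adjusted p = 0.257). Pgk2 had 1, 3 and 4 reads at P10.5 and 12, 6 and 17 at P14.5. With the filter on low counts left out, its log2 fold change was 2.16 ± 0.59 (adjusted p = 0.00498).

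At P14.5 Ldhc, Pdha2 and Cyct were lower in mutant testis, and the somatic forms were not. Ldhc was at 0.541, 0.695 and 0.530 in the tg/tg libraries (22, 27 and 19 reads) and at 46.0, 20.2 and 67.3 in the tg/+ libraries (1821, 866 and 2504 reads), a log2 fold change of -6.23 ± 0.53 (adjusted p = 0.000124). Pdha2 was at 2.64, 2.58 and 2.26 against 12.7, 10.4 and 18.0 (-2.45 ± 0.21, adjusted p = 0.000123), and Cyct at 9.52, 9.80 and 10.1 against 22.7, 17.9 and 30.0 (-1.25 ± 0.19, adjusted p = 0.00138). The genotypes did not overlap in any of the 3 genes, a separation that was not counted over all genes. The tg/tg libraries varied less among themselves than the tg/+ libraries. For Ldhc the mean level was 0.589 ± 0.0924 (SD, n = 3) against 44.5 ± 23.6 (n = 3).

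**Figure D3:**
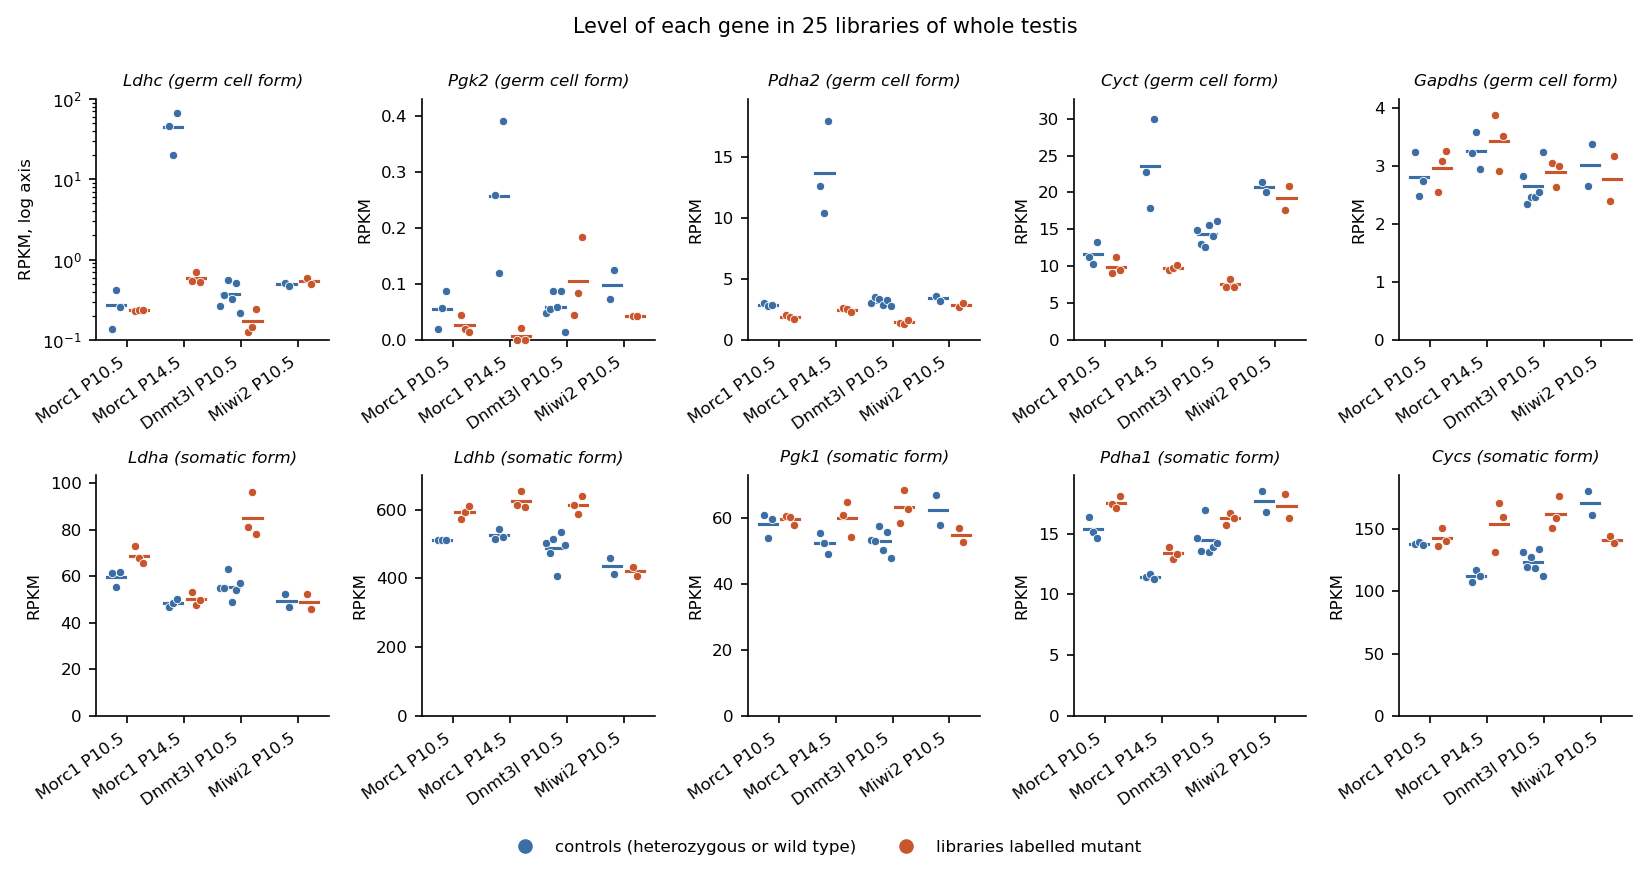
RPKM of the 10 genes in whole testis by line, age and genotype, without the 2 libraries labelled preliminary. Each point is 1 library, with bars at the group mean and a logarithmic axis for Ldhc. Ldhc is at 20.2 to 67.3 in P14.5 Morc1 tg/+ testis and under 1 in every other group, and Gapdhs stays between 2.35 and 3.87 in all libraries.

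The other germ cell forms did not share one pattern at P14.5. Pgk2 had 0, 1 and 0 reads in tg/tg against 12, 6 and 17 in tg/+. Relative to library size, the ratio of tg/+ to tg/tg was 33.5, with a 95% interval of 5.63 to 1360 that covers counting error only, and without the filter on low counts its log2 fold change was -4.65 ± 0.91 (adjusted p = 0.00288). Gapdhs was at 3.87, 2.90 and 3.52 in tg/tg and at 3.21, 3.58 and 2.94 in tg/+ (0.09 ± 0.15, adjusted p = 0.691), with overlapping groups. Its known product belongs to spermatids and sperm, cells that are not yet present in testes of this age, yet each P14.5 library held 105 to 151 reads of Gapdhs. Its mean level was 2.91 over the 27 testis libraries and 0.741 over the 20 sorted libraries, which were made with another kit. Which cells these reads came from was not tested.

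Among the somatic forms at P14.5, Cycs, Ldhb and Pdha1 were higher in tg/tg. Cycs was at 132, 171 and 160 in tg/tg against 107, 117 and 112 in tg/+ (0.47 ± 0.10, adjusted p = 0.00733). Ldhb was at 612, 655 and 608 against 514, 543 and 521 (0.26 ± 0.06, adjusted p = 0.00977), and Pdha1 at 13.9, 12.9 and 13.4 against 11.4, 11.6 and 11.2 (0.24 ± 0.06, adjusted p = 0.0135). In these 3 genes the groups did not overlap, which was again not counted over all genes. The calls of Ldhb and Pdha1 were lost without tg/+ library 1 (adjusted p = 0.0549 and 0.0648). Pgk1 (0.21, adjusted p = 0.0598) and Ldha (0.06, adjusted p = 0.483) were not called. Of the 9 members tested, 3 were called higher and 3 lower, beside 14.8% and 20.1% of all genes and 34.8% in either direction. All 3 that fell were germ cell forms and all 3 that rose were somatic forms.

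Markers of several cell types, though not of all, moved with these groups. At P14.5 the summed level of 8 early meiosis markers was 123 to 150 in tg/tg and 393 to 546 in tg/+, that of 10 pachytene markers 58.6 to 64.9 against 197 to 348, and that of 7 Sertoli cell markers 3743 to 4681 against 2843 to 3217. All 8 early meiosis markers tested and 7 of 8 pachytene markers tested were lower in tg/tg, 1 of the latter, Spag6, having passed the filter through tg/+ alone, and all 7 Sertoli markers were higher. All 4 germ cell markers that passed the filter in both genotypes were lower. Of 6 spermatogonia markers 1 was higher and 1 lower. None of 6 Leydig cell, 5 peritubular cell and 5 blood and macrophage markers was called. The part of these shifts in the values of the 10 genes was not tested.

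At P10.5, the testis of tg/tg mice differed from its controls in 4 of the 9 members tested, 3 higher and 1 lower, beside 15.3% of all genes (6.08% higher, 9.26% lower). Pdha2 was lower, at 2.03, 1.89 and 1.74 in tg/tg against 3.01 in +/+ and 2.79 and 2.84 in tg/+ (-0.60 ± 0.10, adjusted p = 0.00333). Ldhb was higher, at 573, 593 and 609 against 512, 510 and 512 (0.22 ± 0.05, adjusted p = 0.00892). Ldha (0.22 ± 0.06, adjusted p = 0.0261) and Pdha1 (0.20 ± 0.06, adjusted p = 0.0378) were also called higher. The tg/tg libraries lay apart from the controls in all 4 genes, a separation that was not counted over all genes. Ldha and Pdha1 were no longer called when any 1 library except the +/+ one was left out, and the call of Ldhb was lost without tg/tg library 3 (adjusted p = 0.0619). Cyct (9.06 to 11.2 against 10.3 to 13.3), Ldhc (0.232 to 0.237 against 0.136 to 0.425) and Gapdhs overlapped. Summed early meiosis markers were 47.6 to 54.0 in tg/tg against 99.1 to 104 in controls, with all 8 lower. Of the other marker lists, 4 of 6 spermatogonia markers and 3 of 5 germ cell markers were lower, and 3 of 7 Sertoli cell and 3 of 5 blood and macrophage markers were higher. Summed Sertoli cell markers were 3391 to 3754 in tg/tg against 2934 to 3238 in controls, and summed germ cell markers 159 to 180.3 against 245 to 252. The part of these markers in the members' values was not tested.

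The difference between the Morc1 effects at P14.5 and at P10.5 was tested as an interaction of age and genotype. It was called for Ldhc (-6.03 ± 1.21, adjusted p = 0.0062), Pdha2 (-1.85 ± 0.25, adjusted p = 0.000568) and Cyct (-1.05 ± 0.24, adjusted p = 0.0135), each lower at P14.5. These 3 of 9 members stood beside 8.22% of all genes in either direction and 6.73% with a lower effect. Ldhc passed the filter in only part of the groups, so its call follows in part from the filter. Its P10.5 effect rested on 33 reads in tg/tg and 35 in controls. Of the 3 germ cell forms that passed in every group, 2 were called lower. No somatic form was called, with Cycs the nearest (0.40, adjusted p = 0.0572 in edgeR). Cycs was called under 4 of 15 alternatives, namely DESeq2 (adjusted p = 0.0134), upper quartile scaling (0.0341), no filter on low counts (0.0163) and without P14.5 tg/tg library 1 (0.00261). Within tg/tg testis alone, from P10.5 to P14.5, Ldhc (1.30 ± 0.80, adjusted p = 0.206, or 0.0403 by DESeq2), Pdha2 (0.39, adjusted p = 0.102) and Cyct (-0.03, adjusted p = 0.912) were not called. Ldha (-0.47, adjusted p = 3.06e-05) and Pdha1 (-0.41, adjusted p = 5.72e-05) fell, as 2 of 9 members beside 43.8% of all genes called and 23.3% called lower.

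In Dnmt3l-/- testis at P10.5, 2 of the 3 germ cell forms that passed the filter in both groups were lower. Ldhc, which passed it through the controls alone, was also called lower. All 5 somatic forms were higher, in a comparison that called 53.9% of all genes (24.9% higher, 29% lower). Pdha2 was at 1.40, 1.36 and 1.64 in Dnmt3l-/-, at 3.06, 3.49 and 3.39 in Dnmt3l+/+ and at 2.87, 3.32 and 2.79 in Dnmt3l+/- testis (-1.06 ± 0.11, adjusted p = 1.52e-05). Cyct was at 7.22, 8.23 and 7.21 in Dnmt3l-/- against a lowest of 12.6, a median of 14.49 and a highest of 16.1 in the 6 controls (-0.88 ± 0.11, adjusted p = 4.81e-05). For both genes the -/- libraries lay below all controls, a separation that was not counted over all genes. Ldhc rested on few reads, 7, 9 and 16 in -/- and 13 to 27 in the controls. It was at 0.124, 0.148 and 0.246 in -/- against a lowest of 0.215, a median of 0.343 and a highest of 0.552, with overlap (-1.02 ± 0.35, adjusted p = 0.0276), and passed the filter through the controls alone. The call of Ldhc was lost without -/- library 1 (adjusted p = 0.108), without -/- library 2 (0.102), without +/- library 2 (0.0513) and against Dnmt3l+/- alone (0.0955).

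Of the somatic forms in Dnmt3l-/- testis, Ldha had the largest log2 fold change. It was at 81.0, 96.0 and 78.1 against a lowest of 48.8, a median of 55.1 and a highest of 63.0 in the controls (0.66 ± 0.08, adjusted p = 3.86e-05). Cycs (0.43, adjusted p = 0.000188), Ldhb (0.38, adjusted p = 0.00158) and Pgk1 (0.30, adjusted p = 0.0017) were also higher without overlap of the groups. Pdha1 was higher (0.22, adjusted p = 0.0276) with overlapping groups, and lost its call in 6 of 15 alternative settings. Gapdhs was not called (0.17, adjusted p = 0.310), and Pgk2 had 3 to 14 reads in -/- and 1 to 5 in the controls. The summed level of 5 germ cell markers was 124 to 143 in -/- testis against 312 to 409 in its controls, and that of the Sertoli markers 3489 to 3984 against 2352 to 3240. All 8 early meiosis markers were lower, and of 6 spermatogonia markers 5 were lower and 1 higher. Of 7 pachytene markers that passed the filter in both groups, 5 were lower and 1 higher. Their part in the 10 genes was not tested.

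**Figure D4:**
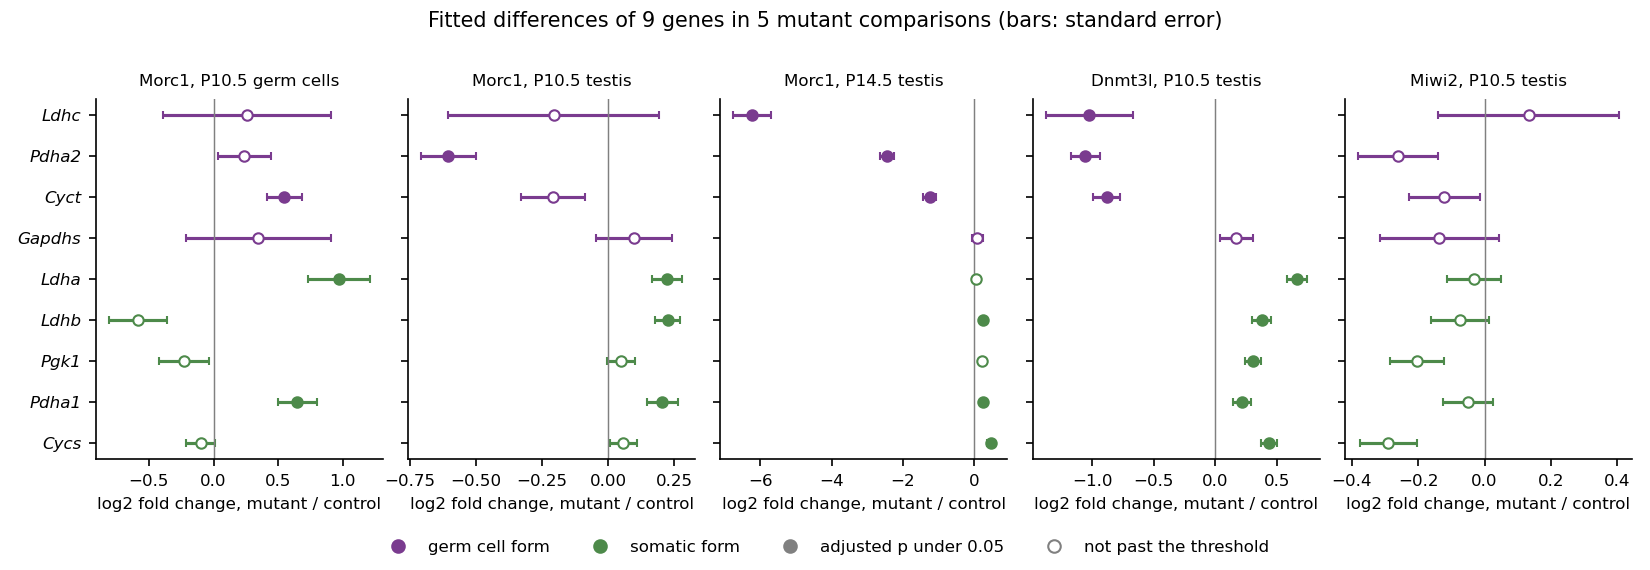
Log2 fold change with its standard error for each gene in the mutant against control comparisons, filled points being those with an adjusted p under 0.05. In P14.5 Morc1 testis Ldhc, Pdha2 and Cyct lie at -6.23, -2.45 and -1.25 while the somatic forms lie between 0.06 and 0.47.

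Between the lines at P10.5, the Morc1 effect minus the Dnmt3l effect was called for 4 of 9 members, 1 positive and 3 negative, beside 17.6% of all genes (9.45% positive, 8.14% negative). It was 0.62 ± 0.17 for Cyct (adjusted p = 0.0192), -0.49 ± 0.12 for Ldha (adjusted p = 0.00868), -0.42 ± 0.09 for Cycs (adjusted p = 0.00338) and -0.30 ± 0.09 for Pgk1 (adjusted p = 0.0243). In each of these genes the Dnmt3l effect was the larger in size. For Pdha2 (0.41, adjusted p = 0.066) and Ldhc (0.77, adjusted p = 0.369) the difference was not called. In the same contrast all 4 germ cell markers that passed the filter in every group were positive, and of 6 spermatogonia markers 5 were positive and 1 negative. Of 8 early meiosis markers 2 were positive, and of 7 Sertoli cell markers 4 were negative. The part of these markers in the differences was not tested. The call of Cyct was lost without Morc1 tg/tg library 2, without the +/+ library or without tg/+ library 2, and that of Pgk1 without tg/tg library 1 or 3, the +/+ library, tg/+ library 3 or Dnmt3l-/- library 2 and without the filter on low counts (adjusted p = 0.053 to 0.0822).

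In the libraries labelled Miwi2-/-, none of the 9 members tested was called, beside 1.23% of all genes. At an unadjusted p under 0.05, 3229 genes and 2 members passed. Cycs was at 144 and 138 against 180 and 161 in Miwi2+/- (-0.29, adjusted p = 0.112), and Pgk1 at 56.8 and 52.8 against 66.8 and 58.0 (-0.20, adjusted p = 0.195). Both were lower without overlap. Without Miwi2+/- library 2, which leaves 1 control library, their log2 fold changes were -0.37 and -0.30. Pdha2, at 2.74 and 3.06 against 3.64 and 3.22, was also lower without overlap. So was Pgk2, at 0.0437 or less against 0.0729 or more, on 6 against 14 reads. Relative to library size, its ratio of +/- to labelled -/- was 2.35, with a 95% interval of 0.848 to 7.45 that covers counting error only. How many of all genes lay apart in this way in 2 against 2 libraries was not counted. Ldhc was at 0.599 and 0.494 against 0.511 and 0.474, and Cyct at 17.6 and 20.9 against 21.4 and 20.0, with overlap in both. DESeq2 called 1 member in this comparison, Cycs. An edgeR fit that also held the replicate numbers as a block called Cycs, Pgk1 and Pdha2, each lower, so the absence of calls depended on the setting.

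The share of the germ cell form in its enzyme differed by enzyme and sample. For the E1 alpha subunit, Pdha2 made up 53.8% ± 7.27 (SD, n = 3) of the summed RPKM of Pdha1 and Pdha2 in P14.5 tg/+ testis and 15.7% ± 1.12 (n = 3) in tg/tg. In P10.5 tg/+ germ cells it made up 38.3% ± 9.67 (n = 4), from 27.7 to 50.6%. In P10.5 testis it made up 15.9% ± 0.471 (n = 2) in tg/+ and 9.72% ± 0.834 (n = 3) in tg/tg testis of the Morc1 line. In the Dnmt3l line its share was 18.1% ± 2.02 (n = 3) in +/+, 17.8% ± 1.46 (n = 3) in +/- and 8.27% ± 0.815 (n = 3) in -/-. For lactate dehydrogenase, Ldhc made up 7.14% ± 3.64 (n = 3) of the 3 genes in P14.5 tg/+ testis and 0.0869% ± 0.0104 (n = 3) in tg/tg, and its highest share was 15.2% ± 0.796 (n = 2) in E16.5 tg/+ germ cells. For cytochrome c, Cyct made up 17.3% ± 3.88 (n = 3) in P14.5 tg/+ testis and 6.05% ± 0.667 (n = 3) in tg/tg, below every share in sorted germ cells. For phosphoglycerate kinase, Pgk2 made up 0.495% ± 0.281 (n = 3) and 0.0113% ± 0.0196 (n = 3) in the same testes, and its highest mean was 3.87% ± 0.61 (n = 2) in E16.5 tg/+ germ cells, on 20 reads. The tg/tg and tg/+ libraries of P14.5 did not overlap in any of these 4 shares.

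**Figure D5:**
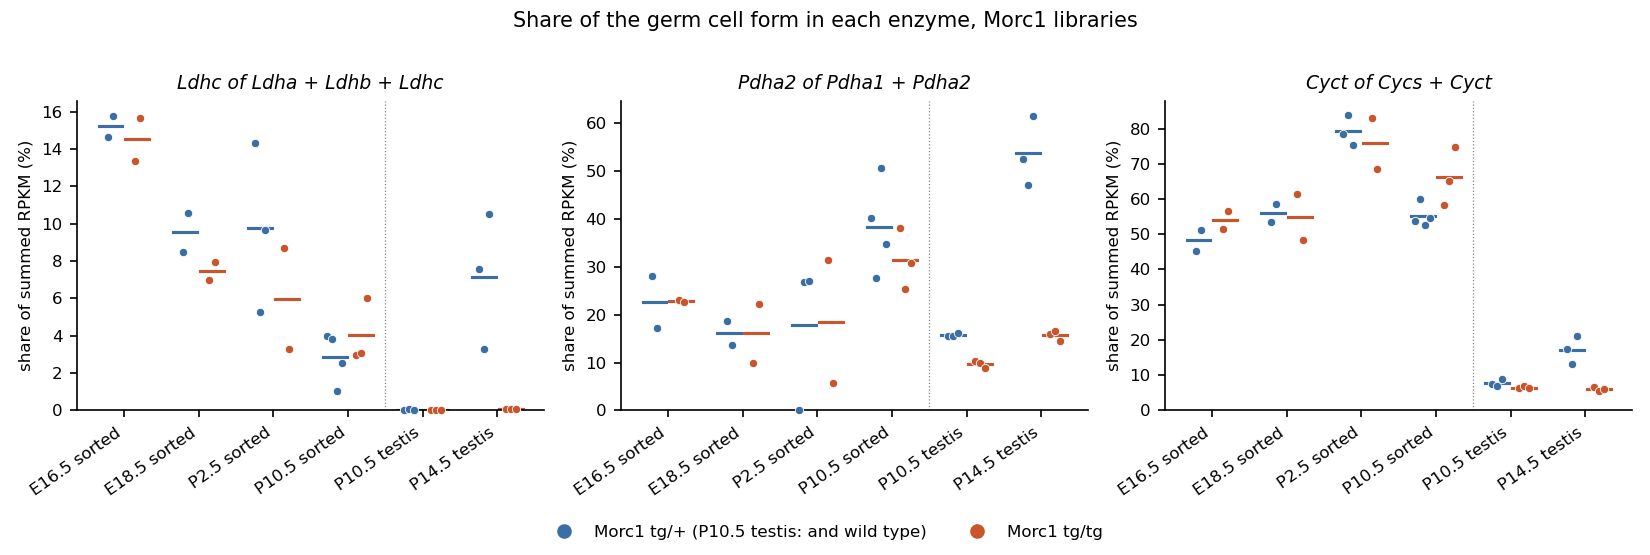
Share of the germ cell form in the summed RPKM of its enzyme, in percent, for each library by group, with bars at the group mean. Pdha2 is at 47.2 to 61.6% in P14.5 Morc1 tg/+ testis and at 27.7 to 50.6% in P10.5 tg/+ germ cells, and the mean of Cyct is highest in P2.5 tg/+ germ cells (79.2%).

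Other genes of these pathways were taken from lists and counted in the same fits. Of 20 further genes of glycolysis and lactate transport, 5 rose and 2 fell in P14.5 tg/tg testis, with a median log2 fold change of 0.06 beside 0.01 over all genes. These 7 of 20 stood at the share of all genes called there (34.8%). Aldoa, the aldolase of most tissues, was higher by 0.35 (adjusted p = 0.00349), and the enolase Eno1 by 0.29 (adjusted p = 0.00834). The 2 that fell were Slc2a3, a glucose transporter (-1.33, adjusted p = 0.00421), and Bsg, the partner protein of lactate transporters (-0.45, adjusted p = 0.000787). The same 2 genes had risen in control testis from P10.5 to P14.5, Slc2a3 by 1.91 (adjusted p = 2.59e-06) and Bsg by 0.51 (adjusted p = 1.39e-06). In P10.5 tg/tg germ cells, 5 of 19 rose, led by Slc2a3 (1.04, adjusted p = 0.000402), and 2 fell, Bsg and, having passed the filter through tg/+ alone, Eno2, beside 12.2% of all genes. In Dnmt3l-/- testis 8 of 20 rose and 4 fell, beside 53.9%.

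Of 12 further genes of the pyruvate dehydrogenase complex and its supply, 5 fell in P14.5 tg/tg testis and 2 rose, with a median of -0.02, beside 20.1% of all genes that fell and 14.8% that rose. The mitochondrial pyruvate carrier Mpc1 (-0.52, adjusted p = 0.00293), the E2 subunit Dlat (-0.47, adjusted p = 0.00432) and the E1 beta subunit Pdhb (-0.36, adjusted p = 0.00466) were among those that fell. The kinase Pdk1 (0.30, adjusted p = 0.00916) and the phosphatase Pdp1 (0.24, adjusted p = 0.0181), which act on the E1 alpha subunit in opposite ways, both rose. In Dnmt3l-/- testis, 5 rose and 4 fell, beside 53.9% of all genes called, and Dlat was among those that rose (0.24, adjusted p = 0.00217). At P10.5 none of the 12 was called in tg/tg testis, beside 15.3% of all genes.

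Further germ cell forms of metabolic genes were also lower in tg/tg testis at P14.5. Of 11 listed genes, 6 passed the filter in both genotypes, and 5 of them fell in tg/tg testis with none rising. The share of all genes lower there was 20.1%. Gk2 and Gykl1, testis forms of glycerol kinase, had 90 to 176 and 39 to 77 reads in tg/+ against 0 to 2 and 0 in tg/tg. They passed the filter through tg/+ alone, had to be lower, and are not counted among the 5. The testis forms of cytochrome c oxidase subunits, Cox8c (-3.66, adjusted p = 0.000227), Cox6b2 (-2.46, adjusted p = 0.000134) and Cox7b2 (-1.92, adjusted p = 0.000178), fell, and so did Slc25a31, the germ cell carrier of ATP and ADP (-0.60, adjusted p = 0.000383). In control testis from P10.5 to P14.5, of the 6 that passed the filter at both ages, 5 rose (29.6% of all genes) and 1, Hk1, fell. Hk1 stands in this list and in that of glycolysis, and only the whole gene was counted, not its germ cell transcript. In Dnmt3l-/- testis at P10.5, 5 of 6 were lower, Hk1 included, beside 29% of all genes, and 1, Cox6b2, was higher (0.37, adjusted p = 0.0215).

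Pgk2 and Pdha2 belong to the autosomal copies of X-linked genes, of which 5 others were counted. In P14.5 tg/tg testis, of the 4 that passed the filter in both genotypes, 3 fell and none rose, beside 20.1% of all genes lower. Tktl2, a copy of a transketolase-like gene, was at 0.292 to 0.46 in tg/tg against 8.85 to 14.6 in tg/+ (-4.98, adjusted p = 4.18e-05), without overlap. Cetn1, a centrin, was at 0.213 to 0.35 against 1.89 to 6.35. It passed the filter through tg/+ alone, had to be lower, and is not counted among the 3. In P10.5 tg/tg germ cells none of 4 tested copies and none of 7 tested germ cell metabolic forms was called, beside 12.2% of all genes. In P10.5 tg/tg testis, 3 of 6 further germ cell metabolic forms were lower (median -0.35) and 1 of 4 copies was lower, beside 9.26% of all genes. These were Slc25a31 (-0.47, adjusted p = 0.000824), Cox7b2 (-0.53, adjusted p = 0.0104), Cox8c (-1.18, adjusted p = 0.013) and the copy Rbmxl2, an RNA-binding protein (-0.57, adjusted p = 0.00261). In E16.5 tg/tg germ cells 1 of 5 copies was called, beside 0.421% of all genes. It was Cstf2t, a cleavage stimulation factor subunit, at 6.17 and 7.57 in tg/tg against 2.61 and 3.52 in tg/+ (1.09 ± 0.19, adjusted p = 0.00778), higher without overlap.

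Across the 27 testis libraries, which share a kit but differ in line, age and depth, the levels of Ldhc and Pdha2 correlated at r = 0.941 (Pearson, log2 of RPKM + 1). For Ldhc the correlation was 0.797 with Pgk2, 0.616 with Cyct and 0.263 with Gapdhs. With Pdha1 it was -0.702. In the 20 sorted libraries Ldhc correlated most with its neighbour Ldha (0.926), both being high before birth. These values describe groups that differ by age and genotype, and the 3 libraries of P14.5 tg/+ testis stand apart from the rest in Ldhc. Among 14010 genes with a level of at least 1 in some testis library, those most like Ldhc were Pdcl2 (0.997), Lass3 (0.997) and 1700029M20Rik (0.996), those most like Pdha2 were Tcam1 (0.988), Clgn (0.979) and Pbx4 (0.978), and those most like Cyct were 9230110C19Rik (0.95), Wdr96 (0.949) and Taf9 (0.936). For Pgk2 the closest were Ndufaf3 (0.89), Ccdc13 (0.887) and Ccdc164 (0.874), and for Gapdhs Rhbdl1 (0.742), 5330438D12Rik (0.724) and Porcn (0.723).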

How the data were processed

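RNA-Seq was analysed in 47 libraries, 20 of sorted germ cells and 27 of whole testis. The authors trimmed reads to 50 bases, removed ribosomal RNA, mapped reads to the mm9 gene and repeat annotations with up to 2 mismatches, keeping those with 1 place, mapped the reads that failed there to the mm9 genome, and counted them per gene with HTSeq, and the deposited tables hold these raw counts without normalization. Beside each count the authors deposited an RPKM value, the count divided by exon length and by the mapped reads of the library. The submitters' processing notes name Bowtie, HTSeq and SAMtools, and the versions and the aligner of gene reads are not given in the sources used here. The 4 small RNA files were not used.

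The deposited counts went into edgeR 4.0.16 (R 4.3.3, TMM scaling, filterByExpr, quasi-likelihood test), each mutant against control comparison on its own libraries, and the germ cell stages, the Morc1 testis ages and the 2 lines in 1 fit each. Adjusted p-values are those of Benjamini and Hochberg across every gene in the fit, and calls are those under 0.05. Standard errors came from the same fit, which was tested on simulated data. Alternatives were DESeq2 1.42.0, upper-quartile scaling, no filter (at least 1 read), leaving out each library, the replicate number as a block, and subsets of the controls. RPKM served for levels and for shares. Transcript windows of 50 bases were searched in mm9 with blastn 2.17.0+, and likeness used log2(RPKM + 1). No 2 libraries of a group agreed within sampling noise (lowest chi-square per gene 4.52). Labels give groups and replicate numbers. Testis RNA was made into libraries with TruSeq v2, and sorted cells with a NuGEN kit from 10 ng of total RNA. Every member was described, and list genes were named as the most changed per direction among those called. The members and lists were chosen with earlier results of these data known.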

Additional observations from a re-analysis of the deposited data

Results flagged for a closer look

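In P10.5 tg/+ germ cells, Pgk2 had 6 reads in library 1 and none in the other libraries, so that the gap from the highest library was 1.0 of the whole range. Of 10 pairs of a member and a group with enough libraries for this check, 1 was past the limit. The gap takes this value whenever a single library has reads and the rest have none.

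The Morc1 effect in testis differed between P14.5 and P10.5, by the interaction test of edgeR, for Ldhc (-6.03 on the log2 scale), Pdha2 (-1.85) and Cyct (-1.05). Ldhc passed the filter in only part of these groups, so its difference follows in part from the filter. The tg/tg libraries were below the controls in all 3 of 3 at P14.5. At P10.5 the effect of Morc1 differed from that of Dnmt3l for Cyct (0.62), Ldha (-0.49), Cycs (-0.42) and Pgk1 (-0.30), in 7 differences in all.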

How the results depend on the processing

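Of 47 member results called over all comparisons, 34 kept their call under every alternative and 13 lost it under at least 1. Of 86 not called, 11 were called under at least 1, and none that was called turned its direction. In P10.5 Morc1 testis, 4 members were called, or 2 when replicate numbers entered as a block, which ended the calls of Ldha (adjusted p = 0.068) and Pdha1 (0.107). In the libraries labelled Miwi2-/-, 0 were called, against 1 by DESeq2 and 3 with the block, Cycs (adjusted p = 1.72e-06), Pgk1 (0.000115) and Pdha2 (0.0282). Leaving out 1 library gave 2 to 3 members in P10.5 germ cells, 1 to 4 in P10.5 and 4 to 8 in P14.5 Morc1 testis, 6 to 8 in Dnmt3l, 0 to 2 in Miwi2, 1 to 2, 3 to 4 and 5 to 5 in the 3 steps of germ cell development, 6 to 8 in control and 2 to 3 in mutant testis over age, 3 to 4 for the interaction (4 under DESeq2, upper quartile scaling and no filter) and 2 to 5 for the difference of lines. Same-numbered libraries deviated together by correlations of -0.428 to 0.348 over all comparisons, and the numbers were not taken to pair the samples. In the Miwi2 line the correlation was 0.321, and with 2 against 2 libraries the other pairings must mirror it, so pairing cannot be judged there. Apart from P10.5 Morc1 testis and the Miwi2 line, the block changed only the call of Ldhb in P10.5 germ cells (-0.76, adjusted p = 0.015). Counts over all genes moved more: 70, 6 and 7 genes were called at E16.5, E18.5 and P2.5 (0 to 296 over the alternatives), 2326 in P10.5 Morc1 testis (922 to 2637) and 197 in the Miwi2 line (153 to 4503). Without 1 library, 3517 to 5001 genes against 5323 were called at P14.5, 1731 to 4795 against 3151 from E16.5 to E18.5, 1144 to 1824 against 1712 in P10.5 germ cells, 772 to 1746 against 1287 for the interaction and 1753 to 4021 against 2797 for the lines. Shares taken from reads in place of RPKM, which ignore transcript length, gave 4.2% and 1.33% for Cyct in P14.5 tg/+ and tg/tg testis. Depth limits Pgk2 (171 reads in 47 libraries, 13 of them with none) and Gapdhs in sorted cells.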
